A study of Mus musculus with 2 samples.

Results

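The Mir130 and Mir301 family is a set of microRNA (miRNA) genes, here Mir130a, Mir130b, Mir301 and Mir301b, taken by symbol from the miRNA genes counted in embryonic mouse heart. These are 4 of 1973 counted genes, and all 4 passed the detection limit of at least 10 counts in both libraries, as did 327 genes in all. The series holds 1 group: whole hearts of healthy strain B6NCrl embryos at day 15.5, with no treatment and no engineered allele named in the labels. The group has 2 biological replicates, each a pool of both sexes, with 78 embryos in replicate 1 and 62 in replicate 2. With 1 group, the data show how strongly each gene of the family was counted and how far the pools differed, and compare no conditions.

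A miRNA is cut from a hairpin RNA, and 1 strand of the cut duplex guides an Argonaute protein to messenger RNAs that pair with its seed, bases 2 to 8 from the 5′ end. miRNAs with the same seed are expected to recognise overlapping sets of targets. In the cardiovascular system the Mir130 and Mir301 miRNAs are known from endothelial cells and the pulmonary vessel wall, and miR-130a has been described as a repressor of Zfpm2 (FOG-2), a cofactor of the GATA factors in heart formation.

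The 3p arms below are printed because their seed, in capitals, defines the family. The sequences are those of RefSeq on GRCm38.p6, and all 4 genes matched a RefSeq hairpin by symbol.
mmu-miR-130a-3p: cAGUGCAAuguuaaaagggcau
mmu-miR-130b-3p: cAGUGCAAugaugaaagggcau
mmu-miR-301a-3p: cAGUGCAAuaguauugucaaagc
The first 9 bases of the 3 arms were identical. Beyond them the sequences fell into a Mir130 type and a Mir301 type. Counted from the 5′ end, miR-130a-3p and miR-130b-3p differed at 2 of 22 positions, U11A and A13G with the base of miR-130a-3p first. Between miR-130a-3p and miR-301a-3p 10 of 22 positions differed, and between miR-130b-3p and miR-301a-3p 11 of 22.

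The hairpins are shown because the reads were counted per hairpin, and because they place the shared stretch within each gene. Capitals mark the longest stretch held by all 4 hairpins, which is 11 bases long and contains the seed of the 3p arm.
Mir130a: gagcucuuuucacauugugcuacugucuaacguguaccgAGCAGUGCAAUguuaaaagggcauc
Mir130b: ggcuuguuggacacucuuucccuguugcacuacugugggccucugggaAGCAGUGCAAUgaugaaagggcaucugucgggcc
Mir301: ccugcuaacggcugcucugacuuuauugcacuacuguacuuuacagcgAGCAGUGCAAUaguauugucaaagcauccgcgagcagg
Mir301b: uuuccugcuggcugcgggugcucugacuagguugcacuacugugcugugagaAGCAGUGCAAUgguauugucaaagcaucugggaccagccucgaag
Over the 23 bases that begin with the capitals, Mir301 and Mir301b differed at 1 position, A12G counted from the first capital with the base of Mir301 first. Mir130a and Mir130b differed at 2, and each Mir130 hairpin differed from each Mir301 hairpin at 8 to 10.

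The 5p arms, cut from the other side of the hairpin, did not share one seed, and are shown for that contrast with the seed again in capitals.
mmu-miR-130a-5p: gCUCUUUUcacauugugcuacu
mmu-miR-130b-5p: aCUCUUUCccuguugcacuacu
mmu-miR-301a-5p: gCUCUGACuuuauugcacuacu
mmu-miR-301b-5p: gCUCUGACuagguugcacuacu
The 5p arms of Mir301 and Mir301b had the same seed, which no other mature arm of the table carried. All 4 arms ended in the same 5 bases. Since the deposited counts are per hairpin, the 3p and 5p arms were not told apart in any value given here.

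The genes lie at 3 places in the genome (GRCm38, mm10). Mir130a (ENSMUSG00000065484.1) is on chromosome 2, at chr2:84741115-84741178 on the minus strand, inside no annotated gene. Its nearest protein-coding genes are Gm19426, 0.99 kb away on the same strand, and Ypel4, 2.46 kb away on the other. Mir130b (ENSMUSG00000065572.1) at chr16:17124061-17124142 and Mir301b (ENSMUSG00000076288.1) at chr16:17124400-17124496 are neighbours on the minus strand of chromosome 16, with 257 bases between them. Both lie within 2610318N02Rik on the same strand, in an intron of each of its 3 transcripts that span them. Mir301 (ENSMUSG00000065589.1), whose mature arms are named miR-301a, is at chr11:87113004-87113089 on the plus strand, in an intron of both transcripts of Ska2 that span it. Ska2 encodes a subunit of the spindle and kinetochore associated complex. No other annotated miRNA gene lay within 50 kb of any of the 4.

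A gene of the Ypel family lay near each place, a shared feature noticed after the positions were seen. Ypel4 was 2.46 kb from Mir130a, Ypel1 was 37.0 kb from Mir130b and 37.4 kb from Mir301b, and Ypel2 was 119 kb from Mir301. In each case the Ypel gene was on the strand opposite the miRNA. Other protein-coding genes lay closer, such as Prr11 at 4.3 kb from Mir301 and Sdf2l1 at 6.0 kb from Mir130b. How often genes of 1 family lie at such distances was not tested. The annotation holds 5 genes of that family, and Ypel3 and Ypel5 lie on chromosomes 7 and 17.

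Levels were computed as counts on the strand of the gene per 1000000 such counts (CPM). The value after ± is the SD of the 2 libraries (n = 2). Mir130a dominated the family. It had 60524 counts in replicate 1 and 103914 in replicate 2. These are 17597 CPM (exact binomial 95% interval 17458 to 17736) and 17814 CPM (17707 to 17922), or 17705 ± 154 CPM. The replicates lay within 2% of each other, and Mir130a ranked 14 of the 1973 genes by its mean.

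Mir130b, its close relative in the 3p arm, had 9758 and 17664 counts in replicates 1 and 2. That is 2837 CPM (2781 to 2894) and 3028 CPM (2984 to 3073), with a mean of 2933 ± 135 CPM and rank 42. The level was slightly higher in replicate 2 on this scale.

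Mir301, the gene in Ska2, had 3609 counts in replicate 1 and 4748 in replicate 2. Its level was 1049 CPM (1015 to 1084) and 814 CPM (791 to 837), or 932 ± 166 CPM, rank 82. Here replicate 1 was the higher one.

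Mir301b, the neighbour of Mir130b, was the lowest of the family, with 167 and 210 counts. Its level was 48.6 CPM (41.5 to 56.5) in replicate 1 and 36.0 CPM (31.3 to 41.2) in replicate 2, or 42.3 ± 8.88 CPM. It ranked 229, and 30.0% of the 327 detected genes had a lower mean, against 95.7% for Mir130a, 87.2% for Mir130b and 74.9% for Mir301. Intervals cover counting error only, and the files give no molecular identifiers.

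**Figure D1:**
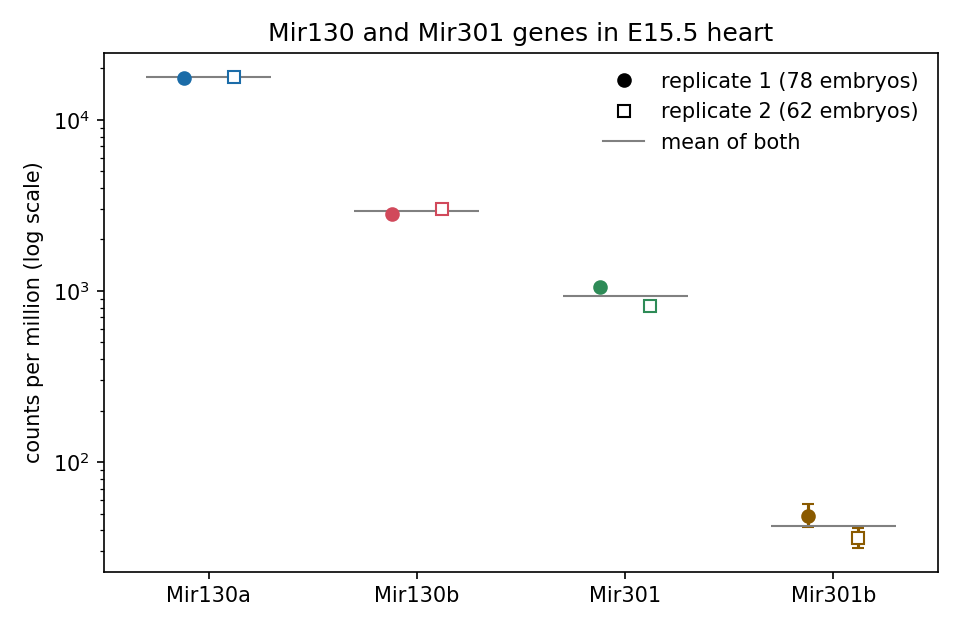
Levels of the 4 genes (horizontal axis) in CPM on a log scale (vertical axis). Filled circles are replicate 1, open squares replicate 2, bars the exact binomial 95% intervals (smaller than the symbol for most points) and grey lines the means of both libraries; the order from Mir130a at 17705 CPM to Mir301b at 42.3 CPM is the same in both libraries.

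The order Mir130a, Mir130b, Mir301, Mir301b held in both libraries, and no gene overlapped its neighbour in that order. The ratio of the counts of Mir130a to those of Mir130b was 6.20 in replicate 1, with an exact binomial 95% interval from 6.07 to 6.34, and 5.88 in replicate 2 (5.79 to 5.98), a log2 ratio of 2.59 ± 0.054. Mir130b exceeded Mir301 by 2.70-fold (2.60 to 2.81) and 3.72-fold (3.60 to 3.84), a log2 ratio of 1.67 ± 0.33. Mir301 exceeded Mir301b by 21.6-fold (18.5 to 25.4) and 22.6-fold (19.7 to 26.1), a log2 ratio of 4.47 ± 0.046. Each step of the order was thus larger than the spread between replicates. The intervals cover counting error within a library, and no test over libraries was made of these ratios. A ratio of counts between different miRNAs is not necessarily a ratio of their amounts in the heart. Counts were not divided by gene length, because a read is a mature miRNA and not a fragment of the annotated hairpin.

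**Figure D2:**
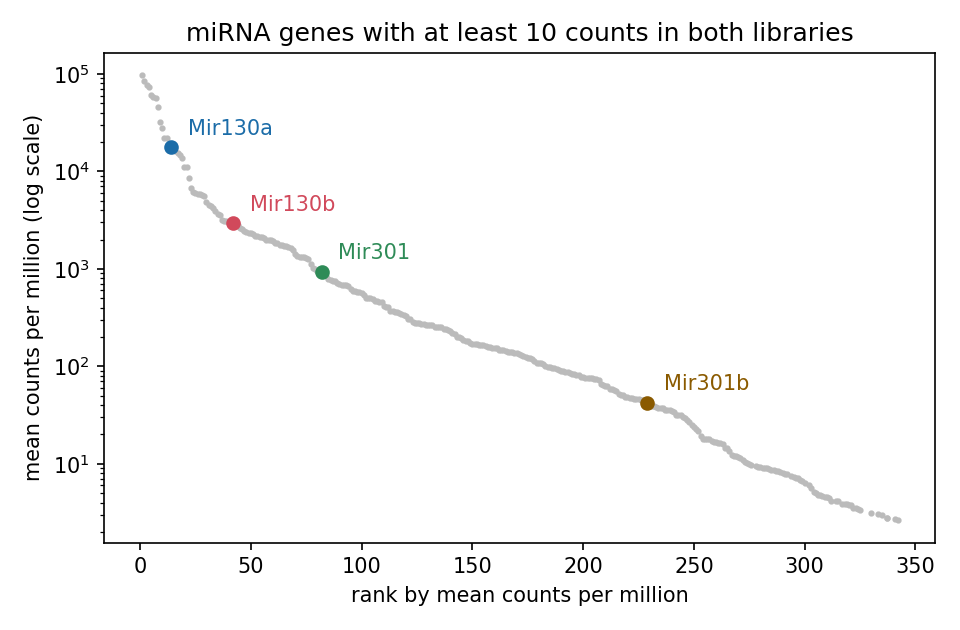
Mean level in CPM (vertical axis, log scale) of the 327 genes with at least 10 counts in both libraries, against their rank among all 1973 counted genes (horizontal axis). The coloured points are Mir130a at rank 14, Mir130b at 42, Mir301 at 82 and Mir301b at 229, spread over the range of the grey points.

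The family summed to 21531 CPM in replicate 1 and to 21692 CPM in replicate 2, or 2.16% ± 0.0114 of all counts on miRNA genes. Mir130a held 81.7% of this sum in replicate 1, with an interval from 81.4% to 82.0%, and 82.1% in replicate 2 (81.9% to 82.3%). Mir130b held 13.2% and 14.0%, Mir301 held 4.87% and 3.75%, and Mir301b held 0.225% and 0.166%. The total was thus nearly equal in CPM, though the TMM scaling used below put all 4 genes higher in replicate 1. The part of Mir301 and Mir301b together was 5.10% (4.94% to 5.26%) in replicate 1 and 3.92% (3.81% to 4.03%) in replicate 2.

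Of the 4 other genes with the same seed, 3 were examined and had no counts. The RefSeq table lists 7 mature arms with the bases AGUGCAA at positions 2 to 8, from Mir130a, Mir130b, Mir301, Mir130c, Mir721, Mir6341 and Mir6389. With Mir301b, whose hairpin carries the same bases, that makes 8 genes. Mir130c, Mir6341 and Mir6389 had 0 counts in both libraries, which allows up to 3 counts (0.872 CPM in replicate 1, 0.514 CPM in replicate 2). Mir721 was not analysed here. The arms of Mir6389 and Mir130c are shown because, of these, they begin most like miR-130a-3p.
mmu-miR-6389: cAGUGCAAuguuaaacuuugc
mmu-miR-130c: cAGUGCAAuguuccaaggugug
The longest stretch that Mir130a shares with any other hairpin of the table is 17 bases, with Mir6389. For Mir301 and Mir301b it is 16 bases, shared with each other, and for Mir130b 16 bases, shared with Mir6368. None of the 4 therefore shares a stretch of 20 bases with another hairpin. Reads that matched several places are in no gene count (33.0% and 30.1% of all reads in replicates 1 and 2). How many of them came from these 4 genes was not tested, and places outside the hairpins were not searched.

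The neighbours on chromosome 16 differed more in their counts than most neighbouring miRNA genes. The ratio of Mir130b to Mir301b was 58.4 in replicate 1 (50.1 to 68.5) and 84.1 in replicate 2 (73.4 to 96.8), a log2 ratio of 6.13 ± 0.37. For comparison, 62 pairs of neighbouring miRNA genes on the same strand had a gap of at most 1000 bases and at least 10 counts for both genes in both libraries. Their median absolute log2 ratio was 3.18, and 10 pairs had a larger one than Mir130b and Mir301b. Among the 33 pairs with no 20-base stretch in another hairpin, the median was 3.00 and 4 pairs had a larger ratio. The largest was that of Mir20a and Mir19b-1 (10.3), a pair in which a hairpin shares such a stretch with another.

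The ratio of Mir130b to Mir301b was also less steady between the libraries than that of most neighbours. It differed by 0.53 on the log2 scale between replicates 1 and 2, against a median absolute difference of 0.20 over the 62 pairs, and 12 pairs differed more. Over the 33 pairs the median was 0.30 and 9 pairs differed more. These are descriptions of 2 libraries, with no test.

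**Figure D3:**
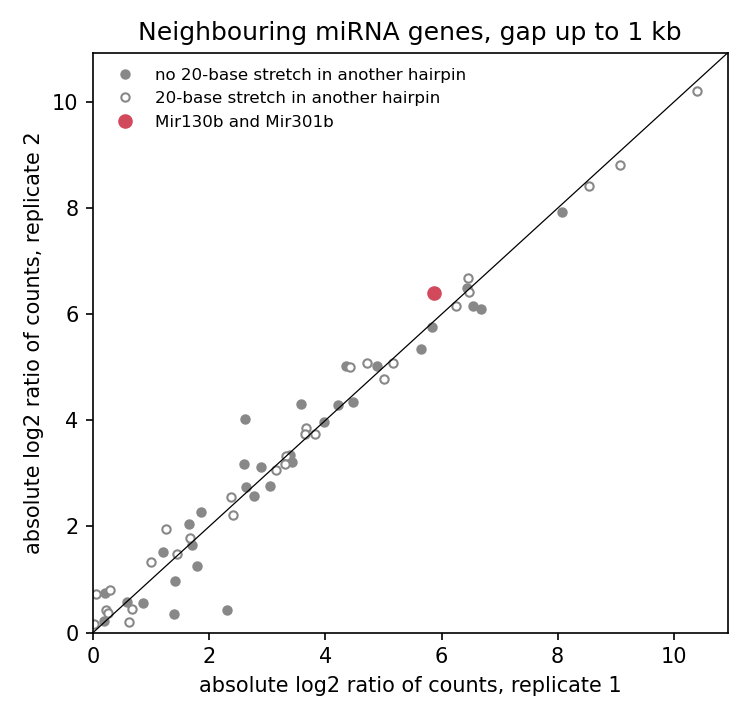
Absolute log2 ratio of counts within each of 62 pairs of neighbouring miRNA genes, replicate 1 on the horizontal and replicate 2 on the vertical axis, with the line of equality. Open circles are pairs in which a hairpin shares 20 bases with another hairpin; Mir130b and Mir301b (red) lie above the line, at 5.87 in replicate 1 and 6.39 in replicate 2.

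Of 7 counted heart muscle markers 4 were detected (Mir208a, Mir208b, Mir499 and Mir490), and the list summed to 62461 and 45595 CPM in replicates 1 and 2. Mir208b made up most of it, at 53878 and 37837 CPM. The other 3 are among the best known miRNAs of heart muscle and were nearly absent from the counts. Mir1a-1 was counted 3 and 4 times, Mir133a-1 5 and 7 times and Mir133a-2 1 and 4 times, and Mir1a-2 was not analysed here. Reads that matched several places are in no gene count, so these low counts do not show that the hearts lacked these miRNAs. How many such reads came from these genes was not tested. The endothelial Mir126a had 79217 and 67775 CPM and the smooth muscle list (Mir143 and Mir145a) 83564 and 89291 CPM. The counted members of the erythroid list (Mir451a and Mir144) had 2376 and 986 CPM. The markers of other tissues were present too, with no counted marker at 0 in both libraries. The epithelial list (7 of 7 detected) summed to 1821 and 6297 CPM, the leukocyte list to 480 and 702 CPM, and the liver miRNA Mir122 to 87.2 and 309 CPM. Replicate 1 held 3439539 counts on miRNA genes and replicate 2 held 5833156.

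Mir301 and Mir301b took a larger place in the library of replicate 1 than in that of replicate 2, while Mir130a and Mir130b differed less. After TMM scaling, which sets the libraries to a common level by a trimmed mean of their log ratios, the log2 ratio of replicate 1 to replicate 2 was 0.57 for Mir301 (95% interval 0.51 to 0.63) and 0.63 for Mir301b (0.33 to 0.93). The adjusted p by the exact conditional binomial test, with Benjamini-Hochberg adjustment over all genes tested, was 8.11e-69 for Mir301 and 8.56e-05 for Mir301b. For Mir130a the log2 ratio was 0.19 (0.17 to 0.20) with an adjusted p of 8.41e-137 by the same exact test, and for Mir130b 0.11 (0.073 to 0.14) with 9.11e-09. Scaled by total counts instead, the ratios of Mir130a and Mir130b turned to -0.018 and -0.094 and those of Mir301 and Mir301b stayed positive at 0.37 and 0.43. With upper quartile scaling they were 0.48 for Mir130a, 0.40 for Mir130b, 0.86 for Mir301 and 0.92 for Mir301b. The size of the Mir130a and Mir130b differences thus depended on the scaling.

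All 4 genes passed the threshold of 0.05, and all were higher in replicate 1 by TMM but 2 of them lower by total counts. Among the 413 genes tested, 46.0% passed, and 24.0% of the 413 passed and were higher in replicate 1. Of the 251 genes with a mean of at least 100 counts, as these 4 have, 68.5% passed. The test sets 2 libraries against counting noise and leaves out the spread between pools, so that most well-counted genes pass, and 4 of 4 is no result about the family. The median log2 ratio was 0.38 over the 4 genes and -0.0095 over all genes tested. Total counts moved the median of all genes to -0.21 and turned the split of calls from 99 higher and 91 lower in replicate 1 to 48 and 155. Upper quartile scaling moved it to 0.28, with 184 and 44.

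In size, the difference of Mir301b was exceeded by 18.7% of the 327 detected genes and that of Mir301 by 20.2%, against 60.6% for Mir130a and 74.6% for Mir130b. In these bulk pools fewer cells of a type and less RNA per cell cannot be told apart. In CPM, the heart muscle, endothelial and erythroid sums given above were higher in replicate 1. The smooth muscle, epithelial, leukocyte and liver ones were higher in replicate 2. Within the heart muscle list Mir208b had 53878 and 37837 CPM in replicates 1 and 2 and Mir499 had 2492 and 1829. Mir208a was closer, at 5972 and 5801 CPM, and Mir490 went the other way, at 118 and 126. Within the erythroid list Mir451a had 1975 and 564 CPM in replicates 1 and 2, but Mir144 had 401 and 422. The list also named Mir486a, a symbol that no counted gene had. The counted Mir486 was therefore outside the sum, at 80.8 and 110 CPM. Within the smooth muscle list Mir143 had 82454 and 88393 CPM, but Mir145a had 1110 and 899. After TMM scaling Mir143, Mir145a and Mir144 were higher in replicate 1 (log2 ratios 0.10, 0.51 and 0.13) and Mir486 lower (-0.24). Mir490, with a log2 ratio of 0.10, did not pass the threshold. The part of these cell types in the differences of Mir301 and Mir301b was not tested.

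**Figure D4:**
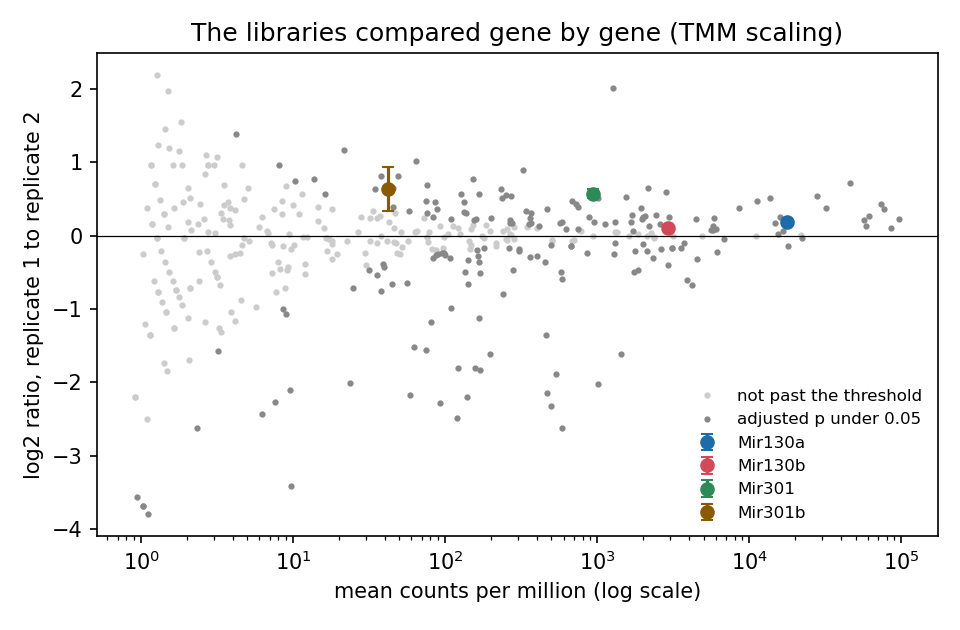
Log2 ratio of replicate 1 to replicate 2 after TMM scaling (vertical axis) against mean CPM (horizontal axis, log scale) for the 413 genes tested. Dark grey points have an adjusted p under 0.05, light grey points do not; the family is in colour with exact 95% intervals, Mir301 (0.57) and Mir301b (0.63) lying above Mir130a (0.19) and Mir130b (0.11).

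Ratios within a library do not depend on the scaling. They moved least between Mir301 and Mir301b and between Mir130a and Mir130b, the pairs most alike over the 23 bases of the hairpins compared above, and most between Mir130b and Mir301b, the pair that lies side by side. A link of these moves with sequence or position was not tested. Mir301 and Mir301b, on different chromosomes, kept a ratio of 21.6 and 22.6 with overlapping intervals. Mir130a and Mir130b, also on different chromosomes, differed by 0.076 on the log2 scale between the libraries, with ratios of 6.20 and 5.88 whose intervals did not overlap. The summed Mir130 genes exceeded the summed Mir301 genes by 18.6-fold in replicate 1 (18.0 to 19.2) and 24.5-fold in replicate 2 (23.8 to 25.2). The 4 ratios of a Mir130 gene to a Mir301 gene were all lower in replicate 1, by 0.38 to 0.53 on the log2 scale, and none of their intervals overlapped between the libraries. These 4 ratios are built from the same 4 counts per library, so they restate the differences given above and are not separate observations. The difference rests on 1 pool against 1 other, and these intervals leave out the spread between pools.

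The genes nearest to each member in level over both libraries, by the Euclidean distance of log2(CPM + 0.5), were Mirlet7d, Mir21a and Mir23b for Mir130a (distances 0.16 to 0.23). For Mir130b they were Mir423, Mir532 and Mir369 (0.047 to 0.16). For Mir301 they were the smooth muscle Mir145a, Mir148a and Mir181a-1 (0.16 to 0.28), and for Mir301b Mir193b, Mir331 and Mir194-1 (0.15 to 0.28). The genes next in rank were Mir23b and Mirlet7d around Mir130a, Mir214 and Mir423 around Mir130b, Mir501 and Mir148a around Mir301, and Mir877 and Mir495 around Mir301b. With 2 libraries this likeness is mostly one of level.

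Families chosen for a related seed gave a scale for the sum. The Mir148 family carries CAGUGCA at bases 2 to 8, the same letters moved by 1 base, and the Mir17 type AAAGUGC, which has AGUGC in common with the family. Their leading members are printed here with the seed in capitals.
mmu-miR-148a-3p: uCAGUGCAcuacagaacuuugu
mmu-miR-17-5p: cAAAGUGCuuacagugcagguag
The Mir148 family (Mir148a, Mir148b and Mir152) summed to 1193 and 1150 CPM in replicates 1 and 2, less than Mir130b alone. The Mir17 type, 6 genes led by Mir17 (14688 and 14992 CPM), summed to 29069 and 31447 CPM, above the 21531 and 21692 CPM of the Mir130 and Mir301 genes. The Mir302 type, whose seed was not compared here, has 4 genes led by Mir302a (353 and 323 CPM) and summed to 873 and 786 CPM. These orders were the same in both libraries, and the gap to each of the 3 lists was larger than the spread between replicates.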

How the data were processed

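Small RNA libraries of 2 heart pools were analysed from the deposited counts. Per the text files deposited with them, reads were placed on mm10 and counted on GENCODE M4, and per the labels the size range was under 30 bases. The sources used here name no aligner, trimming or counter. The authors deposited whole, unnormalized read counts per miRNA gene for either strand, the strand of the gene (used here) and the opposite strand. Lines naming no gene were left out: multiply matching reads were 33.0% and 30.1% of reads, unmapped ones 13.1% and 15.1%. GENCODE M21 gave symbols for 1894 of 1973 IDs.

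Genes with at least 10 counts summed were tested, replicate 1 against replicate 2, with an exact conditional binomial test, two-sided, at TMM-scaled sizes (edgeR 4.0.16, R 4.3.3), adjusted by Benjamini-Hochberg over all of them. Alternatives were total counts, DESeq2 1.42.0 size factors, the upper quartile, either strand and other filters. The test was also run on simulated counts with counting noise only, at unscaled library sizes. Such counts hold no spread between pools, so that run cannot show how the test behaves with it. Named genes were the 4 members, the 3 nearest to each in level, those next in rank, genes with the same seed, neighbours, and 3 lists chosen for related seeds. Members and lists were chosen with earlier results of these data known. 1 count is worth 0.291 CPM in replicate 1 and 0.171 CPM in replicate 2. Python 3.11.15, numpy 2.4.6, pandas 2.3.3, scipy 1.17.1 and matplotlib 3.10.9 were used.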

Additional observations from a re-analysis of the deposited data

Results flagged for a closer look

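Reads on the strand opposite Mir130a were counted in both libraries, in a column that no comparison above uses. Replicate 1 had 8 such counts and replicate 2 had 8, above the 3 counts that a count of 0 allows. They were 0.0132% and 0.00770% of the counts on either strand of Mir130a. Mir130b, Mir301 and Mir301b had 0 counts on the opposite strand in both libraries.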

How the results depend on the processing

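Of 74 alternatives to the main results, 65 were counted as unchanged. Differences so counted kept direction and side of the threshold, and the family sum, share and ratios stayed within the spread between replicates. The numbers of genes called were also among the 65, but their direction was not compared. By total counts 2 of the 4 members called were higher in replicate 1 and 2 in replicate 2, against 4 and 0 in the main result. Some of the 65 could not have come out otherwise. Leaving out 1 of 2 replicates always gives a value within that spread. Counts on either strand could hardly move ratios between members or the share of Mir130a, with at most 8 opposite-strand counts per member and library. Scaling by total counts reversed Mir130a (log2 ratio -0.018) and Mir130b (-0.094) between the libraries. With larger denominators, the family sum was 10639 per 1000000 of all reads and 20467 CPM with counts on either strand. Per annotated gene length Mir130a held 85.5% of the family, and the log2 ratios of Mir130a to Mir130b, Mir301 and Mir301b were 2.95, 4.69 and 9.33 and that of Mir301 to Mir301b 4.64. The order of the 4 genes was the same in every alternative run. The difference of Mir301 ranged from 0.37 to 0.86 and that of Mir301b from 0.43 to 0.92. That of Mir130a ranged from -0.018 to 0.48 and that of Mir130b from -0.094 to 0.40. Without either replicate no difference between libraries can be computed. No paired analysis was possible because the series has 1 group. Mir301b, with 167 and 210 counts, is the member whose depth limits its value most.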
